A study of Mus musculus with 48 samples.

Results

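The 9 genes described here encode transcription factors that establish and maintain hepatocyte identity, namely *Hnf4a*, *Foxa1*, *Foxa2*, *Foxa3*, *Cebpa*, *Cebpb*, *Onecut1*, *Prox1* and *Tbx3*. They were taken by their GENCODE mouse symbols, matched through the gene identifiers of the deposited tables, from 16269 genes with a ribosome-protected fragment (RPF) transcript and 20622 genes in the RNA tables. All 9 were found in both kinds of table and passed the low-count filter in every comparison. RPFs are mRNA stretches that a ribosome covers while it translates, and they were counted over coding sequences. Cytoplasmic RNA was sequenced from the same livers, and the ratio of RPF to RNA gives the translational efficiency (TE).

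Livers came from male mice of mixed C57BL/6 background aged between 2 and 4 months, with 4 genotypes. The labels call them Wild-type, here WT, *Ctnnb1*ex3/+, here B, *R26*-LSL-MYC, here M, and *Ctnnb1*ex3/+; *R26*-LSL-MYC, which carries both alleles and is here BM. The *Ctnnb1*ex3 allele yields a stabilized β-catenin after Cre recombination, and *R26*-LSL-MYC yields MYC from the *Rosa26* locus once its stop cassette is removed. Mice of every genotype, WT included, received AAV8.TBG.Cre, a virus that expresses Cre from the TBG promoter, which is active in hepatocytes, so the alleles were recombined in hepatocytes that took up the virus and not by design in other liver cells. Livers were taken 4 or 10 days later from 3 mice of each genotype, which gave 8 groups, 24 mice and 48 libraries. Whole livers were profiled, so fewer hepatocytes and less RNA per hepatocyte cannot be told apart. The day is the time since injection, and no source used here says whether mice of both days were injected together.

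RPF libraries held 9742197 to 14380713 counts and RNA libraries 3254141 to 6540116. *Glul*, a target of β-catenin, was at 3060 to 5180 RPF CPM (counts scaled to the TMM-adjusted size of the library) in B mice and 1630 to 4210 in BM mice, against 511 to 862 in WT and 578 to 799 in M mice. *Myc* was at 43.6 to 164 CPM in M and BM mice, against 2.43 to 18.3 in WT and 11.2 to 35.3 in B. Mouse 1 of BM at day 10 stood apart from its group, with a mean correlation to the other mice of its group of 0.9275 in RPFs, against 0.9556 to 0.992 for the other 23 mice. Some results that rest on this mouse are given with and without it. The 10 hepatocyte markers were present in every group, at summed levels of 39300 to 100000 CPM.

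Hepatocyte identity is held by a network of transcription factors that bind each other's promoters and those of the genes for plasma proteins, bile acid synthesis and gluconeogenesis. HNF4A, a nuclear receptor, and the C/EBP factors are basal components of that network in the adult liver. The FOXA factors open chromatin at liver enhancers, and ONECUT1, PROX1 and TBX3 act from the time the embryonic liver bud forms.

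On GRCm39, *Hnf4a* lies at chr2:163348728-163414830 on the plus strand with 10 exons, *Foxa1* at chr12:57587414-57593702 (minus, 2 exons), *Foxa2* at chr2:147884797-147889005 (minus, 2 exons) and *Foxa3* at chr7:18747209-18757471 (minus, 2 exons). *Cebpa*, at chr7:34818718-34821353, and *Cebpb*, at chr2:167530835-167532338, are on the plus strand and have 1 exon each. *Onecut1* lies at chr9:74769118-74800594 (plus, 2 exons), *Prox1* at chr1:189850232-189904637 (minus, 5 exons) and *Tbx3* at chr5:119806298-119822797 (plus, 8 exons). Exon numbers are those of the transcript on which RPFs were counted. Their coding sequences ran from 888 bases in *Cebpb* to 2223 in *Tbx3*. No window of 30 coding bases was shared with another gene, except for 1.54% of the windows of *Onecut1*, which *Onecut3* shares. The exons of *Onecut1* overlap those of the long noncoding *Gm20649* on the same strand over 2171 of 5573 bases, and *Cebpb* overlaps *Peds1* on the opposite strand over 312 of 1504 bases. Long noncoding genes on the opposite strand overlap *Tbx3* (*Tbx3os1*, 948 of 5211 bases, and *Tbx3os2*, 36), *Prox1* (*Prox1os*, 849 of 8843), *Onecut1* (*Gm68752*, 464 of 5573) and *Cebpa* (*Gm45091*, 51 of 2636), so RNA counts of these genes are uncertain to that extent.

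RefSeq promoters, which span 250 bases before to 50 after a gene start, were matched by symbol for 8 of the 9 genes and gave 12 promoters. They were tabulated on GRCm38.p6, and each of the 12 sequences was found exactly once in GRCm39, the build of the deposited files, whose coordinates are given here. The 6 below are shown because *Hnf4a* is transcribed from separate promoters, and because the 3 *Foxa* genes and *Onecut1* moved in different directions in the same livers. Capitals mark matches, on either strand, to CCAAT, the TATA box TATAAA, the ONECUT motif ATTGAT, the FOXA motif TGTTTAC, the HNF1 half-site GTTAAT and the E-box CACGTG.
*Hnf4a* upstream promoter (chr2:163348527-163348826, plus): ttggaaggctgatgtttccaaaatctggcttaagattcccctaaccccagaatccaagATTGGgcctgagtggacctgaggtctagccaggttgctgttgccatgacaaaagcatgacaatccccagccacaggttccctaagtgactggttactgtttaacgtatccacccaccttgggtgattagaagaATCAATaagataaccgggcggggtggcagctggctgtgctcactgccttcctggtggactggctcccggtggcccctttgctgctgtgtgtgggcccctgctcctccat
*Hnf4a* downstream promoter (chr2:163388825-163389124, plus): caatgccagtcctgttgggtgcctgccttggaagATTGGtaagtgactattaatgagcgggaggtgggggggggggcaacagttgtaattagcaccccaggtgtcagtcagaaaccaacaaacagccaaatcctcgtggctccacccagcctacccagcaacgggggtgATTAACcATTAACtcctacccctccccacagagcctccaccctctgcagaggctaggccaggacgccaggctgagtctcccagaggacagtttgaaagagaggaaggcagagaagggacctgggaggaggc
*Foxa1* (chr12:57592848-57593147, minus): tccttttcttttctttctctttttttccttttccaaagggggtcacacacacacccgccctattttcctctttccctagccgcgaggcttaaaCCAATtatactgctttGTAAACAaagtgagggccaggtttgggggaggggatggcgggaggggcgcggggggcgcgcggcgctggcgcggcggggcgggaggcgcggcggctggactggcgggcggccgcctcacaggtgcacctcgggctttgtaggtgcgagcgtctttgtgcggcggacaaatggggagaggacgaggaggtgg
*Foxa2* (chr2:147888840-147889139, minus): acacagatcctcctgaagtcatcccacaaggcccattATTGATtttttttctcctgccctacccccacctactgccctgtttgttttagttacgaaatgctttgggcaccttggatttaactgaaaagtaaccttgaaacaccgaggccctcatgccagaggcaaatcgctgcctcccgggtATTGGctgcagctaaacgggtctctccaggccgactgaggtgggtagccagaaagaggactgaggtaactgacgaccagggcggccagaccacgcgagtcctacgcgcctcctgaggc
*Foxa3* (chr7:18757415-18757714, minus): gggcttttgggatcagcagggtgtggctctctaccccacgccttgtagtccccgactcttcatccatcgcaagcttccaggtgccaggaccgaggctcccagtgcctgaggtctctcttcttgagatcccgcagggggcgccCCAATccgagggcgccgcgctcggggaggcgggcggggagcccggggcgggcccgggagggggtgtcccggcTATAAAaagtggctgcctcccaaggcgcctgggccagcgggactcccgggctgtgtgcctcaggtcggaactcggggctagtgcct
*Onecut1* (chr9:74768953-74769252, plus): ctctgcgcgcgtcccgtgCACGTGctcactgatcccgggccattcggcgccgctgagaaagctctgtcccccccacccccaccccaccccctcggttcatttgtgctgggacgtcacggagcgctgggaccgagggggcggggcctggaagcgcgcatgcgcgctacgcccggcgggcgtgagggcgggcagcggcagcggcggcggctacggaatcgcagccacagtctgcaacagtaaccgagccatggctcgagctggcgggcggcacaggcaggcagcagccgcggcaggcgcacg
The transcript of *Hnf4a* on which RPFs were counted begins 6 bases from the start assigned to the downstream promoter, which holds 2 HNF1 half-sites, at −81 and −74 from the start. The upstream promoter holds none of these and has an ONECUT motif at −59. The *Foxa1* promoter has a FOXA motif at −141, that of *Foxa2* an ONECUT motif at −213, that of *Foxa3* a TATA box at −36 and that of *Onecut1* an E-box, the sequence that MYC binds with MAX, at −232. Among 32851 mouse promoters of the same length, 7.54% hold ATTGAT, 7.1% GTTAAT, 3.65% TGTTTAC, 7.15% CACGTG, 13.6% TATAAA and 37.4% CCAAT. A match of letters is a description and not evidence that a factor binds there. TTGCNNAA, a C/EBP motif found in 10.8% of promoters, was in none of the 12, and ATCAAAG, a TCF/LEF motif found in 3.73%, was in 1 further *Foxa2* promoter, at 15.

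In WT livers the 9 genes covered a wide span of levels. Over both days, *Hnf4a* had the highest RPF density, at 149 CPM per kilobase of coding sequence, above 92.7% of 14107 genes, followed by *Cebpb* at 114, *Cebpa* at 100, *Foxa3* at 55 and *Prox1* at 31.5. *Foxa2* followed at 17.1 CPM per kilobase, *Onecut1* at 12.5, *Foxa1* at 8.73 and *Tbx3* at 8.31, the last above 56.1% of genes. RNA, in deposited TPM, a level per transcript length, ran in another order, with *Hnf4a* at 155, *Cebpa* at 78.2, *Cebpb* at 47.8, *Prox1* at 34.1, *Onecut1* at 29.5, *Foxa3* at 29, *Foxa1* at 15.6, *Foxa2* at 11.8 and *Tbx3* at 3.34. The order was not fixed. *Cebpb* was at 153 ± 8.94 CPM per kilobase (SD, n = 3) and *Cebpa* at 86.1 ± 3.79 in WT at day 4, against 74.9 ± 17.4 and 114 ± 20.3 at day 10. At day 4 *Foxa2* (11.5 ± 4.23) and *Tbx3* (12.2 ± 2.51), and *Foxa1* (5.80 ± 2.00) and *Onecut1* (4.83 ± 2.31), lay within each other's spread. At day 10 *Foxa2* (22.8 ± 5.34) and *Onecut1* (20.1 ± 3.09) had overlapping spreads, as had *Onecut1* and *Prox1* (17.6 ± 1.41).

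**Figure D1:**
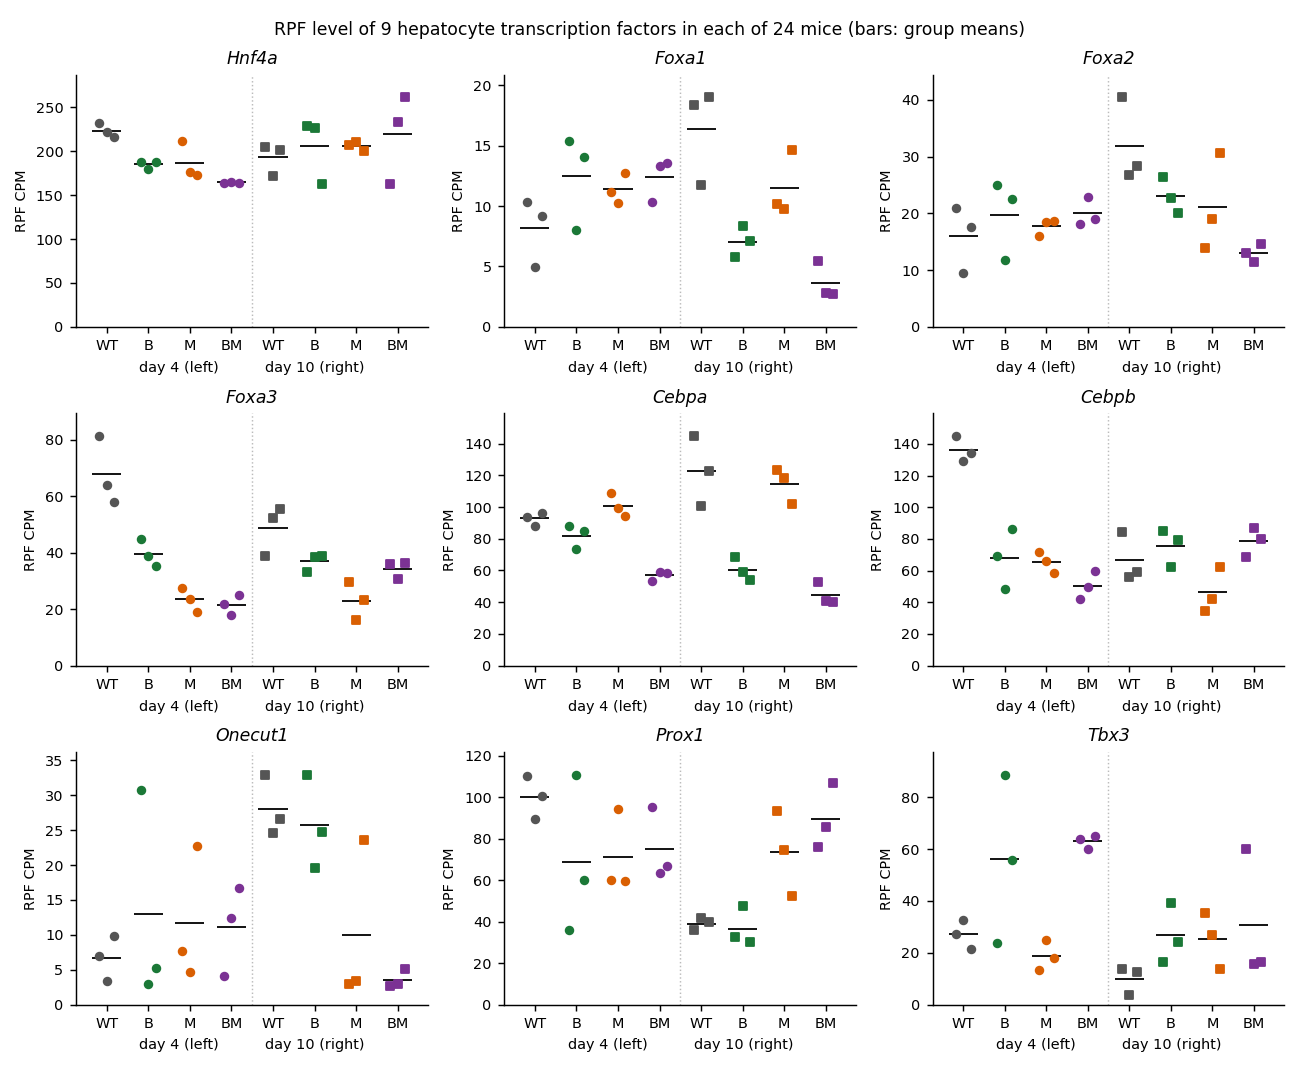
RPF CPM (y axis) of each of the 9 genes in every mouse, with 1 panel per gene, 1 point per mouse, the 8 groups of genotype and day along the x axis and a bar at each group mean. *Foxa3* was at 58 to 81.2 CPM in WT at day 4 and at 18 to 25.1 in BM, while *Onecut1* ranged from 2.98 to 30.8 within B at day 4.

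At day 4, RPFs of *Foxa3* and *Cebpb* fell in all 3 mutant genotypes, and those of *Hnf4a* fell by less, a fall that was called in none of the 3 with counts scaled to library totals alone and turned to 0.01 on the log2 scale in BM. *Prox1* fell in M and BM, likewise not called with library totals and then at 0.04 in BM. *Cebpa* fell in BM livers, where *Tbx3* and *Foxa1* rose, the latter with a call that depended on single mice. Among the 9 genes, 3 fell and 0 rose in B, 4 fell and 0 rose in M, and 5 fell and 2 rose in BM, at an adjusted p under 0.1 in edgeR's quasi-likelihood F test over all genes. Of all genes tested, 12.5% passed in B, 33.3% in M and 50.9% in BM, so that the 7 of 9 in BM stand against a background of 50.9%. The median log2 change of the 9 was −0.19 for B, −0.22 for M and −0.39 for BM, beside −0.01, 0.01 and −0.0007 over all genes. With library totals alone it was −0.08, −0.01 and 0.04, beside 0.10, 0.23 and 0.42. Of the genes called, 49.8%, 55.7% and 51.5% were higher in the mutant, and 75%, 86.2% and 87.2% when counts were scaled to library totals alone. In RNA, 1 rose and 2 fell in B (8.14% of all genes passed), 0 rose and 2 fell in M (23.7%), and 4 rose and 4 fell in BM (41.9%).

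At day 10, RPFs of *Foxa1*, *Cebpa* and *Foxa2* fell in B and BM, *Onecut1* fell in BM, *Foxa3* fell in all 3 genotypes and *Prox1* rose in M and BM. *Tbx3* rose in all 3 genotypes, with calls that depended on single mice. The calls of *Foxa2* in B and of *Foxa3* in B and BM also depended on single mice and were lost with library totals alone. By RPFs, 1 of the 9 rose and 4 fell in B (25.2% of all genes passed), 2 rose and 1 fell in M (19.4%), and 2 rose and 5 fell in BM (46.8%). The median log2 change of the 9 was −0.14, −0.51 and −0.52, beside 0.007, −0.001 and 0.03 over all genes. With library totals alone it was 0.12, −0.26 and −0.14, beside 0.27, 0.245 and 0.41. The share of calls that were higher was 51.9%, 54.7% and 52.4%, and 86.9%, 90.1% and 79.9% with library totals alone. In RNA, 1 rose and 1 fell in B (15.6%), 2 rose and 1 fell in M (15.7%), and 2 rose and 5 fell in BM (45.7%). All these comparisons share the WT mice of the day, so they are not independent of each other.

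**Figure D2:**
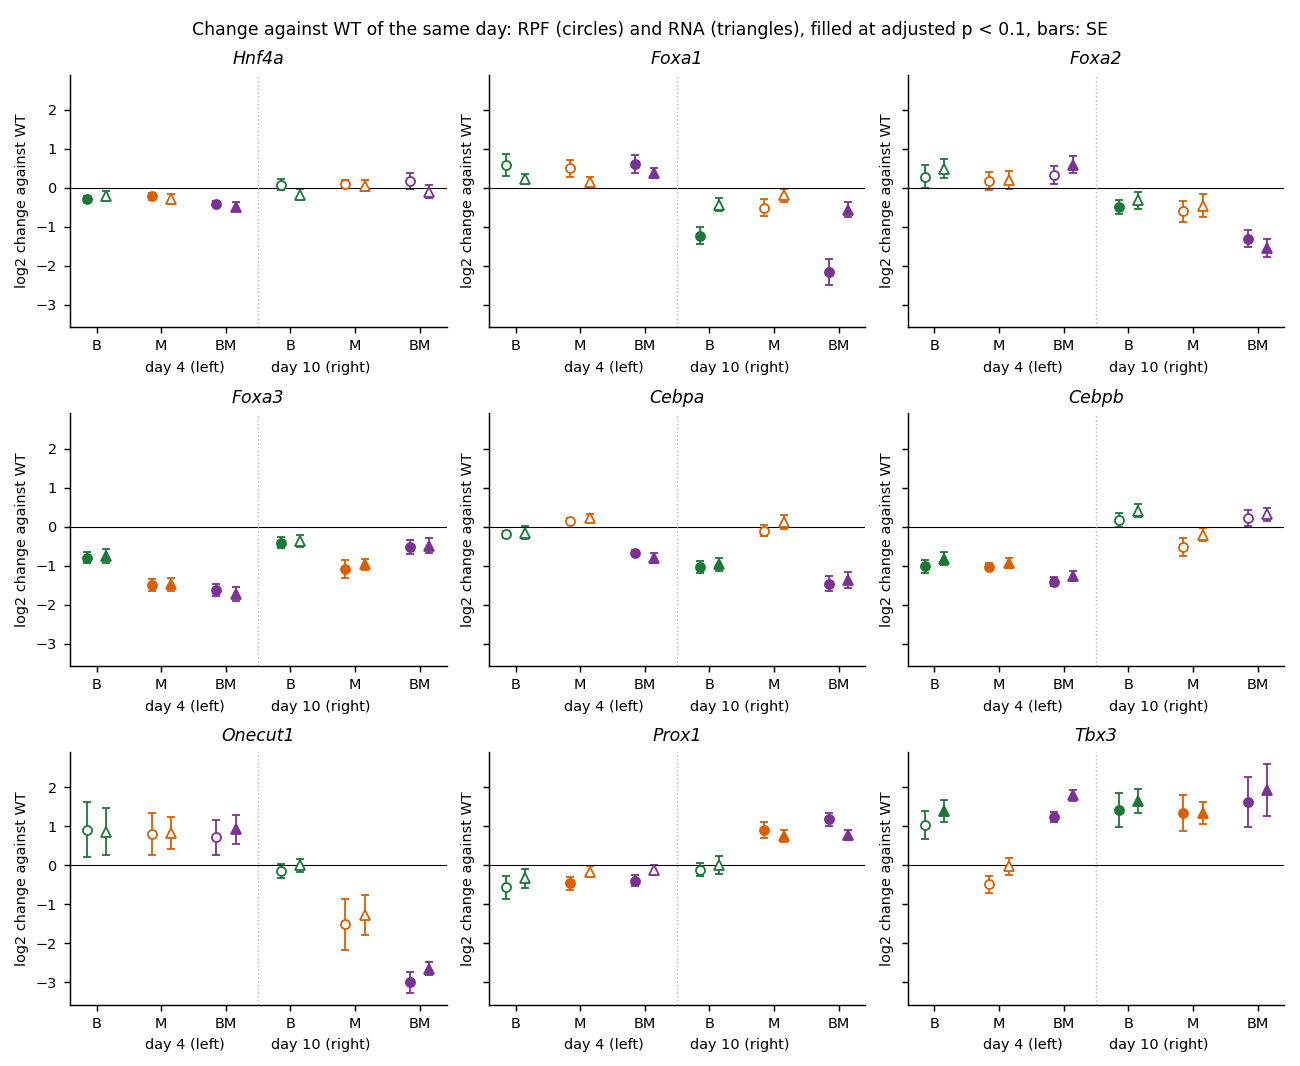
Log2 change (y axis) of each gene against WT of the same day in B, M and BM (x axis), for RPFs (circles) and RNA (triangles), with bars of 1 SE and filled symbols where the adjusted p was under 0.1. The RPF change of *Foxa3* was −0.79, −1.50 and −1.63 in B, M and BM at day 4, and that of *Onecut1* −3.00 in BM at day 10.

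*Hnf4a*, the nuclear receptor on which most hepatocyte genes depend, moved little. At day 4 its RPFs were 232, 223 and 216 CPM in the 3 WT mice, against 187, 180 and 188 in B, 212, 176 and 174 in M and 164, 166 and 164 in BM. Every mutant mouse was below every WT mouse, and BM mice were the lowest. On the log2 scale, its RPFs changed by −0.29 (SE 0.08, adjusted p = 0.0442) in B, −0.22 (SE 0.09, adjusted p = 0.0959) in M and −0.42 (SE 0.07, adjusted p = 0.000712) in BM. RNA was at 637, 463 and 499 CPM in WT and 388, 387 and 366 in BM at day 4, which do not overlap, with a log2 change of −0.49 (adjusted p = 0.00529). At day 10, RPFs were 205, 172 and 202 CPM in WT, against 229, 227 and 162 in B, 207, 211 and 200 in M and 163, 234 and 261 in BM. These groups overlap, and no RPF or RNA change passed (log2 RPF change 0.08 for B, 0.09 for M and 0.17 for BM). Without mouse 1 of BM the RPF change was 0.35 with an adjusted p of 0.0357, and with library totals alone the changes were 0.34, 0.34 and 0.54 and all passed (adjusted p = 0.0996, 0.049 and 0.0447). The fall at day 4 depended on the scaling. With counts scaled to library totals alone, which moved the median of all genes up by 0.42 in RPFs and 0.55 in RNA in BM, the changes of *Hnf4a* in BM were 0.01 and 0.07, and none of the 3 RPF calls was kept. The fall in M was called in only 1 of 6 fits that left out a mouse (lost without WT mouse 1, 2 or 3 or M mouse 2 or 3, range −0.34 to −0.18), and that in B was lost without WT mouse 1 or B mouse 2 (range −0.31 to −0.26).

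The 3 FOXA genes, pioneer factors that bind nucleosomal DNA through a winged-helix domain, did not move together. *Foxa3* RPFs at day 4 were 81.2, 64.1 and 58 CPM in WT, against 44.8, 38.9 and 35.1 in B, 27.6, 23.7 and 19.2 in M and 21.9, 18 and 25.1 in BM. No mutant mouse reached the lowest WT mouse, and M and BM mice lay below all B mice. On the log2 scale, RPFs changed by −0.79 (SE 0.14, adjusted p = 0.00479) in B, −1.50 (SE 0.15, adjusted p = 0.000158) in M and −1.63 (SE 0.15, adjusted p = 7.85e-06) in BM, and RNA changed by −0.76, −1.48 and −1.73 (adjusted p = 0.0303, 3.77e-05 and 6.4e-06), of which the call in B was lost without WT mouse 1 or B mouse 3 (range −0.93 to −0.56). These RPF calls were kept in every fit that left out a mouse and in all 6 other settings. At day 10, *Foxa3* was at 38.7, 52.2 and 55.5 CPM in WT, against 33.2, 38.6 and 39 in B, 29.7, 16 and 23.1 in M and 35.9, 30.6 and 36.3 in BM. M mice were the lowest and B overlapped WT. RPF changes on the log2 scale were −1.09 (SE 0.22, adjusted p = 0.0182) in M, kept without any single mouse, and −0.41 (adjusted p = 0.0853) in B and −0.52 (adjusted p = 0.0502) in BM. The latter calls were lost with counts scaled to library totals. That in B was also lost without WT mouse 2 or 3 or B mouse 1 or 2 (range −0.57 to −0.32), and that in BM without WT mouse 2 or 3 or BM mouse 2 (range −0.68 to −0.43).

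*Foxa1* RPFs were higher than WT in BM at day 4 and lower in B and BM at day 10. Its RPFs at day 4 were 10.3, 4.98 and 9.16 CPM in WT, against 15.4, 8.02 and 14 in B, 11.1, 10.3 and 12.7 in M and 10.3, 13.3 and 13.6 in BM. WT mouse 2 was the lowest of the 12, and BM lay above WT by a narrow margin. The log2 change in BM was 0.61 (SE 0.22, adjusted p = 0.0453), a call lost without WT mouse 2 or BM mouse 2 or 3 (range 0.37 to 0.82) and in the fit of all 24 mice. B (0.58, adjusted p = 0.255) and M (0.49, adjusted p = 0.136) did not pass, although B passed without B mouse 2 (0.82, adjusted p = 0.0831) and M without WT mouse 1 (0.71, adjusted p = 0.0748). At day 10, RPFs were 18.4, 11.8 and 19 CPM in WT, against 5.78, 8.31 and 7.1 in B, 10.2, 9.74 and 14.6 in M and 5.45, 2.79 and 2.73 in BM. B and BM mice were all below WT, with BM the lowest. Fitted log2 changes were −1.23 (SE 0.22, adjusted p = 0.00581) in B and −2.16 (SE 0.33, adjusted p = 0.0027) in BM, where RPFs were 4.45-fold lower, and both calls were kept without any single mouse. M, at −0.51 (adjusted p = 0.173), passed without WT mouse 2 (−0.69, adjusted p = 0.0812) or M mouse 3 (−0.71, adjusted p = 0.0453). *Foxa1* RNA at day 10 was at 35.2, 38.3 and 54.3 CPM in WT, 28.3, 32 and 33.8 in B, and 24.2, 32.8 and 29.9 in BM. The RNA groups lay closer together than the RPF groups, and the log2 RNA change was −0.43 (SE 0.18, adjusted p = 0.153) in B and −0.56 (SE 0.20, adjusted p = 0.052) in BM, the latter lost with counts scaled to library totals and without WT mouse 3 or BM mouse 3 (range −0.71 to −0.38).

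*Foxa2*, which also acts in bile acid and lipid metabolism, was at 21, 9.47 and 17.5 RPF CPM in WT at day 4, against 25, 11.8 and 22.5 in B, 16, 18.5 and 18.7 in M and 18, 22.9 and 18.9 in BM. These groups overlap and no RPF change passed (0.28, 0.17 and 0.33), although BM passed without WT mouse 1 (0.58, adjusted p = 0.0702). *Foxa2* RNA rose in BM at day 4 by 0.59 (adjusted p = 0.0454), a call lost without WT mouse 2 or BM mouse 2 (range 0.34 to 0.76). At day 10, RPFs were 40.4, 26.8 and 28.4 CPM in WT, against 26.4, 22.6 and 20 in B, 13.8, 19 and 30.5 in M and 13.1, 11.5 and 14.6 in BM. BM mice lay below all B mice, and M spanned from BM levels to those of WT. The log2 change in BM was −1.30 (SE 0.21, adjusted p = 0.00323), kept without any single mouse, and RNA fell by 1.54 on the log2 scale (adjusted p = 0.00128). The change in B was −0.49 (SE 0.17, adjusted p = 0.086), a call lost without WT mouse 1 or 3 or B mouse 2 or 3 (range −0.61 to −0.29) and with library totals. M, at −0.60 (adjusted p = 0.193), passed without M mouse 3 (−0.96, adjusted p = 0.0139).

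*Cebpa*, a factor for metabolic genes that restrains proliferation, and *Cebpb*, its relative induced in the acute-phase response and after hepatectomy, both fell in BM at day 4. *Cebpa* also fell in B and BM at day 10, and *Cebpb* in B and M at day 4. *Cebpa* RPFs at day 4 were 93.9, 88.3 and 96.2 CPM in WT, against 87.8, 73.5 and 84.7 in B, 109, 99.5 and 94.1 in M and 53.6, 58.8 and 58.2 in BM. BM mice stood apart from the other 9 mice of the day. The fitted log2 RPF change was −0.68 in BM (SE 0.08, adjusted p = 5.78e-05), −0.19 in B (adjusted p = 0.256) and 0.15 in M (adjusted p = 0.191), and RNA fell in BM by 0.81 (adjusted p = 0.000418). At day 10, *Cebpa* was at 145, 101 and 123 CPM in WT, against 68.7, 58.9 and 54.1 in B, 123, 118 and 102 in M and 53, 40.6 and 40.4 in BM. M overlapped WT, and B and BM did not. In log2 terms, RPFs changed by −1.04 (SE 0.15, adjusted p = 0.00249) in B and −1.47 (SE 0.19, adjusted p = 0.00156) in BM, where RPFs were 2.77-fold lower. RNA changed by −0.96 (adjusted p = 0.00332) and −1.36 (adjusted p = 0.00147), and these 4 calls at day 10 were kept in all fits run.

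*Cebpb* RPFs at day 4 were 145, 129 and 134 CPM in WT, against 69.3, 48.5 and 86.5 in B, 71.8, 65.8 and 58.4 in M and 42.1, 49.4 and 59.6 in BM. All 9 mutant mice were below the lowest WT mouse. The log2 RPF change was −1.01 (SE 0.17, adjusted p = 0.00372) in B, −1.03 (SE 0.09, adjusted p = 7.72e-05) in M and −1.41 (SE 0.12, adjusted p = 5.41e-06) in BM, and RNA changed by −0.82, −0.93 and −1.27 (adjusted p = 0.0073, 0.000187 and 6.45e-06). These calls were kept in all fits run. At day 10, *Cebpb* was at 84.2, 56.3 and 59 CPM in WT, against 84.9, 62.1 and 79.3 in B, 34.8, 42.1 and 62.6 in M and 68.5, 87.1 and 80.1 in BM. The groups overlap, and WT itself was lower than at day 4. None passed (0.16 for B, −0.52 for M and 0.23 for BM), although M passed without M mouse 3 (−0.79, adjusted p = 0.0196) and BM with counts scaled to library totals (0.59, adjusted p = 0.0459). Acute-phase genes, a list of 14 written after values had been seen, were lower in the mutants at day 4, when *Cebpb* was lower too. Their summed RPFs were 50500 to 70200 CPM in WT at day 4 and 16600 to 34000 in the mutants of that day, and 14 of 14 fell in each mutant genotype (against 12.5%, 33.3% and 50.9% of all genes called for B, M and BM), whereas at day 10 WT was at 31200 to 47300, B at 20800 to 32900, M at 26100 to 29100 and BM at 14600 to 20900. At day 10 in BM, 2 of the 14 rose and 9 fell (46.8% of all genes were called), while *Cebpb* was not lower. Their part in the result was not tested.

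*Onecut1*, known also as HNF6, was the most variable of the 9 between mice of a group. At day 4 its RPFs were 6.99, 3.4 and 9.83 CPM in WT, against 30.8, 2.98 and 5.27 in B, 7.72, 4.6 and 22.7 in M and 4.16, 12.4 and 16.7 in BM. Mouse 1 of B and mouse 3 of M stood far above the others of their groups, and all groups overlap. No RPF change passed at day 4 (0.92, 0.80 and 0.73, adjusted p = 0.526, 0.319 and 0.218), although M passed without M mouse 2 (1.19, adjusted p = 0.074) and BM without BM mouse 1 (1.13, adjusted p = 0.0066). The rise in B rested on mouse 1, since the other B mice, at 2.98 and 5.27 CPM, were not above the WT range of 3.4 to 9.83. *Onecut1* RNA rose in BM at day 4 by 0.93 (adjusted p = 0.0744), a call lost without WT mouse 1 or 2 or BM mouse 2 or 3 (range 0.60 to 1.32). At day 10, RPFs were 32.9, 24.7 and 26.6 CPM in WT, against 32.9, 19.6 and 24.7 in B, 3, 3.37 and 23.6 in M and 2.73, 2.95 and 5.04 in BM. All BM mice and 2 of 3 M mice were at low levels, and B overlapped WT (log2 change −0.14). On the log2 scale, RPFs changed by −3.00 in BM (SE 0.28, adjusted p = 0.000396), which is 7.98-fold lower, with RNA at −2.64 (SE 0.16, adjusted p = 2.01e-05). Both calls were kept in all fits run. In M it was −1.50 (SE 0.66, adjusted p = 0.174), although no M mouse reached the lowest WT mouse, and without M mouse 3 it was −3.13 (adjusted p = 8.11e-05). The RPF counts behind these values were 28 to 444 per mouse. *Onecut1* RNA followed the same mice, at 136, 117 and 122 CPM in WT, 17.5, 21 and 115 in M, and 20.5, 16.5 and 23.4 in BM at day 10.

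*Prox1*, a homeobox factor of hepatoblast migration and of hepatocyte metabolism, was at 110, 89.6 and 101 RPF CPM in WT at day 4, against 35.8, 111 and 59.9 in B, 60.2, 94 and 59.7 in M and 95, 63.4 and 66.9 in BM. Each mutant group overlapped WT. RPF changes on the log2 scale were −0.46 in M (SE 0.17, adjusted p = 0.069) and −0.39 in BM (SE 0.14, adjusted p = 0.0407), while B, at −0.56 (adjusted p = 0.312), passed without B mouse 2 (−1.08, adjusted p = 0.00818). The M call was lost without WT mouse 1 or 3 or M mouse 1 or 3 (range −0.71 to −0.37), and that of BM without WT mouse 1 or 3 or BM mouse 2 or 3 (range −0.59 to −0.28). With counts scaled to library totals, both were lost and the BM change was 0.04. At day 10, *Prox1* was at 35.7, 41.8 and 39.5 CPM in WT, against 32.5, 47.3 and 30 in B, 93.5, 74.3 and 52.1 in M and 76.1, 85.8 and 107 in BM. All M and BM mice were above all WT mice, and B overlapped WT (log2 change −0.11). Fitted log2 changes were 0.91 (SE 0.20, adjusted p = 0.0223) in M and 1.18 (SE 0.17, adjusted p = 0.00218) in BM, where RPFs were 2.27-fold higher. RNA rose by 0.76 (adjusted p = 0.0105) and 0.78 (adjusted p = 0.00265), and these 4 calls were kept in all fits run. WT mice themselves were lower at day 10 than at day 4, and the BM range at day 10, 76.1 to 107 CPM, overlapped the 89.6 to 110 of WT at day 4.

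*Tbx3*, a T-box transcriptional repressor that promotes the expansion of hepatoblasts, and a known target of β-catenin in liver, was at 27.1, 32.7 and 21.5 RPF CPM in WT at day 4, against 23.8, 88.6 and 55.7 in B, 13.5, 25.1 and 18 in M and 63.9, 60.2 and 65 in BM. BM mice were all above WT and close to each other, whereas B spread from the WT range to the highest value of all 24 mice. The fitted log2 RPF change was 1.24 in BM (SE 0.13, adjusted p = 1.89e-05), with RNA at 1.80 (SE 0.14, adjusted p = 4.83e-07). B, at 1.03 (SE 0.36, adjusted p = 0.111), passed without B mouse 1 (1.40, adjusted p = 0.00144), and its RNA rose by 1.41 (adjusted p = 0.0112). M was at −0.48 (adjusted p = 0.132) and passed without WT mouse 3 (−0.62, adjusted p = 0.0896) or M mouse 2 (−0.75, adjusted p = 0.0166). At day 10, *Tbx3* was at 13.6, 3.68 and 12.4 CPM in WT, against 16.4, 39.4 and 24.3 in B, 35.4, 26.8 and 13.7 in M and 60.1, 15.7 and 16.5 in BM. Mutant mice lay above WT, but the highest WT and the lowest M mouse differed by little and BM rested on mouse 1. In log2 terms, RPFs changed by 1.41 (SE 0.43, adjusted p = 0.0534) in B, 1.35 (SE 0.46, adjusted p = 0.0921) in M and 1.62 (SE 0.63, adjusted p = 0.078) in BM. Without BM mouse 1 the BM change was 0.69 and was not called, and the call was also lost without WT mouse 1, 2 or 3 (range 0.69 to 1.94). The B call was lost without WT mouse 3 or B mouse 2 (range 1.01 to 1.73), and the M call without WT mouse 1, 2 or 3 or M mouse 1 or 2 (range 0.96 to 1.69). RNA rose by 1.66 (B), 1.35 (M) and 1.94 (BM) (adjusted p = 0.00482, 0.0131 and 0.0486), and the BM call was lost without WT mouse 1 or 2. Without BM mouse 1 the RNA change in BM was 0.70 (adjusted p = 0.0955), against up to 2.34 without any other mouse.

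*Lgr5* and *Notum*, further targets of β-catenin, also differed within BM at day 10, at 30 to 116 and 12.7 to 71.9 RPF CPM. *Axin2* was at 6.2 to 26.7 CPM in that group, against 23.6 to 28.4 in BM at day 4 and 1.84 to 3.52 in WT. *Lgr5* was highest in mouse 1, which also held the highest *Tbx3* level of its group. Its part in the spread of *Tbx3* was not tested.

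To ask what the combination of both alleles adds to each single one, BM was compared with B and with M. At day 4, *Cebpa* (log2 change −0.49, adjusted p = 0.00229) and *Foxa3* (−0.83, adjusted p = 0.00106) RPFs were lower in BM than in B. Against M, *Cebpa* was lower (−0.84, adjusted p = 8.34e-05) and *Tbx3* higher (1.72, SE 0.17, adjusted p = 0.000131), and *Cebpb* was lower (−0.39, adjusted p = 0.0449, groups overlapping, lost without M mouse 1 or BM mouse 1 or 2, range −0.52 to −0.26). Of all genes, 44.7% passed against B and 38.2% against M, and 51.8% and 49.3% of the calls were higher in BM (87.4% and 80.7% with library totals alone). The call of *Cebpa* against B was lost with counts scaled to library totals. At day 4 the other genes did not pass against B (*Cebpb* −0.40, *Onecut1* −0.19, *Hnf4a* −0.13, *Foxa1* 0.03, *Foxa2* 0.05, *Prox1* 0.17 and *Tbx3* 0.21). Nor did the others against M (*Hnf4a* −0.20, *Foxa3* −0.14, *Onecut1* −0.08, *Prox1* 0.06, *Foxa1* 0.11 and *Foxa2* 0.16). At day 10, *Onecut1* and *Foxa2* were lower in BM than in B (−2.84, adjusted p = 0.00271, and −0.80, adjusted p = 0.02) and *Prox1* was higher (1.31, SE 0.23, adjusted p = 0.0105). *Foxa1* (−0.92, adjusted p = 0.0669) and *Cebpa* (−0.42, adjusted p = 0.0995) were lower too, but both calls were lost without B mouse 1, 2 or 3 or BM mouse 2 or 3 (ranges −1.32 to −0.74 and −0.54 to −0.33). Against M at day 10, *Cebpa* (−1.38, adjusted p = 0.00336) and *Foxa1* (−1.65, adjusted p = 0.0132) were lower in BM and *Cebpb* was higher (0.75, adjusted p = 0.0541, lost without M mouse 1 or 2 or BM mouse 2 or 3, range 0.58 to 0.99). Of all genes, 36.5% passed against B and 32.7% against M at day 10, with 51.5% and 48.8% of the calls higher (65.7% and 67.3% with library totals alone). *Onecut1* did not pass between BM and M (−1.48, SE 0.78, adjusted p = 0.204). That value rested on M mouse 3, at 23.6 RPF CPM. The other M mice, at 3 and 3.37, lay within the BM range of 2.73 to 5.04. Also without a call against M were *Foxa2* (−0.70), *Hnf4a* (0.07), *Tbx3* (0.25), *Prox1* (0.26) and *Foxa3* (0.56), and against B *Foxa3* (−0.10), *Cebpb* (0.08), *Hnf4a* (0.11) and *Tbx3* (0.21). Both *Tbx3* values rested on BM mouse 1, at 60.1 RPF CPM against 15.7 and 16.5 in the other BM mice. In RNA, 0 genes rose and 4 fell against B at day 4 (34.8% of all genes passed), 1 rose and 2 fell against M (30.5%), 1 rose and 2 fell against B at day 10 (31.8%), and 2 rose and 2 fell against M (32.9%).

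WT livers themselves differed between the days in 6 of the 9 genes by RPFs, against 4.44% of all genes, and in 5 of the 9 by RNA, against 2.32%. *Onecut1* RPFs were higher at day 10 (log2 change 2.05, SE 0.26, adjusted p = 0.00364), and *Foxa1* and *Foxa2* were each higher by 0.99 (adjusted p = 0.0659 and 0.0579). *Prox1* was lower (−1.36, SE 0.11, adjusted p = 0.000232), as were *Cebpb* (−1.03, SE 0.14, adjusted p = 0.00474) and *Tbx3* (−1.45, SE 0.33, adjusted p = 0.0446). *Hnf4a* (−0.21), *Foxa3* (−0.48) and *Cebpa* (0.41) did not pass. Of the genes called, 48.8% were higher at day 10, and 65.8% with library totals alone. In RNA 46.9% were higher, and with library totals alone 11.9% of all genes passed, of which 92.3% were higher. In RPFs, WT mice of the 2 days did not overlap for any of the 9 genes. The share of all genes without overlap was not counted, so nothing is read from this. RNA differed in the same direction for *Onecut1* (1.71), *Foxa2* (1.12), *Prox1* (−0.86), *Cebpb* (−0.90) and *Tbx3* (−1.14). Calls of *Foxa1* were lost without WT mouse 2 or 3 of day 4 or mouse 1 or 3 of day 10 (range 0.75 to 1.20), those of *Foxa2* without mouse 3 of day 4 or mouse 1 or 3 of day 10 (range 0.73 to 1.24), and that of *Tbx3* without mouse 1 or 2 of day 4 (range −1.78 to −1.05). In 1 fit of all 24 mice only 2 of the 6 RPF calls were made, those of *Prox1* and *Cebpb*, while 1.14% of all genes were called. A mutant effect at each day is measured against these WT levels.

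**Figure D3:**
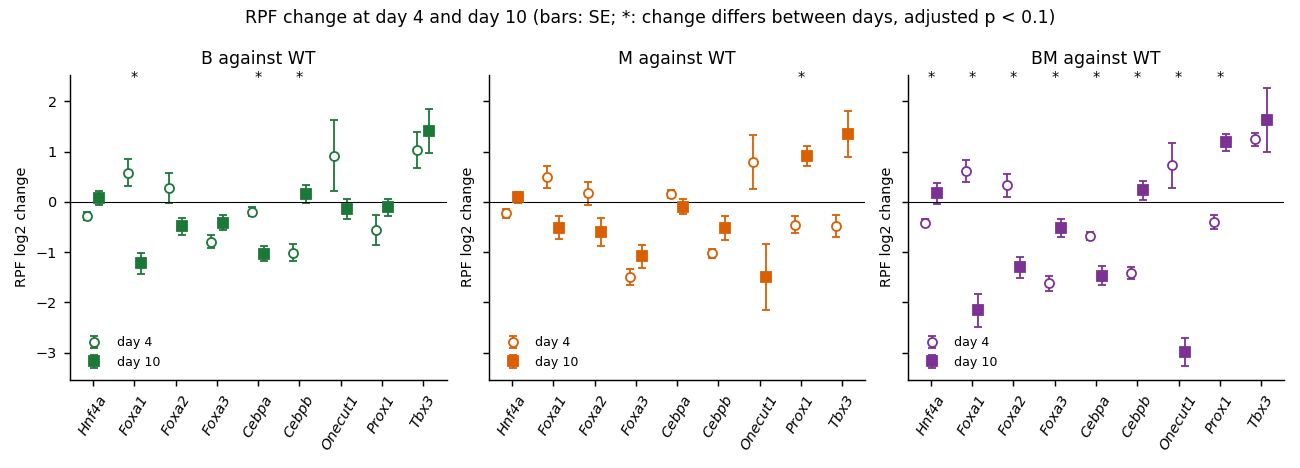
Log2 RPF change against WT (y axis, bars of 1 SE) of each gene (x axis) at day 4 (open circles) and day 10 (filled squares) in B, M and BM, with an asterisk where the change differed between the days at an adjusted p under 0.1. In BM the change of *Onecut1* was 0.73 at day 4 and −3.00 at day 10, and that of *Cebpb* −1.41 and 0.23.

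The change against WT differed between the days for 8 of the 9 genes in BM by RPFs (35.7% of all genes), for 3 in B (17.2%) and for 1 in M (1.18%). In B, 48.7% of the calls had a higher change at day 10, and 72.1% with library totals alone. In BM, *Onecut1* (difference −3.72, adjusted p = 0.00169), *Foxa1* (−2.75, adjusted p = 0.00105), *Foxa2* (−1.63, adjusted p = 0.00569) and *Cebpa* (−0.78, adjusted p = 0.0162) had a lower change at day 10. *Cebpb* (1.65, adjusted p = 0.000692), *Prox1* (1.59, adjusted p = 0.000748), *Foxa3* (1.11, adjusted p = 0.00682) and *Hnf4a* (0.60, adjusted p = 0.0569) had a higher one. Only *Tbx3*, at 0.40 (adjusted p = 0.705), did not pass in BM. Its value rested on BM mouse 1 of day 10, at 60.1 CPM against 15.7 and 16.5 in the other BM mice of that day. In B, *Foxa1* (−1.81, adjusted p = 0.0113) and *Cebpa* (−0.84, adjusted p = 0.0107) had a lower change at day 10 and *Cebpb* a higher one (1.18, adjusted p = 0.0154). The others did not pass in B (*Onecut1* −1.06, *Foxa2* −0.77, *Hnf4a* 0.37, *Foxa3* 0.38, *Tbx3* 0.39 and *Prox1* 0.46), and the value of *Onecut1* rested on B mouse 1 of day 4. In M, *Prox1* had a higher one (1.38, adjusted p = 0.0618), and the others did not pass (*Onecut1* −2.29, *Foxa1* −0.996, *Foxa2* −0.76, *Cebpa* −0.24, *Hnf4a* 0.33, *Foxa3* 0.42, *Cebpb* 0.52 and *Tbx3* 1.85). The calls of *Hnf4a* in BM and *Prox1* in M were each made in only 5 of 12 fits that left out a mouse (ranges 0.43 to 0.75 and 1.19 to 1.64). The first was lost without WT mouse 1 or BM mouse 1, 2 or 3 of day 4, or WT mouse 2 or BM mouse 2 or 3 of day 10, and the second without mouse 1 or 3 of WT or M at day 4, mouse 1 or 3 of WT at day 10 or M mouse 1 of day 10. In RNA, the change differed for 6 genes in BM (29.9% of all genes), 2 in B (9.31%) and 1 in M (1.2%).

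**Figure D4:**
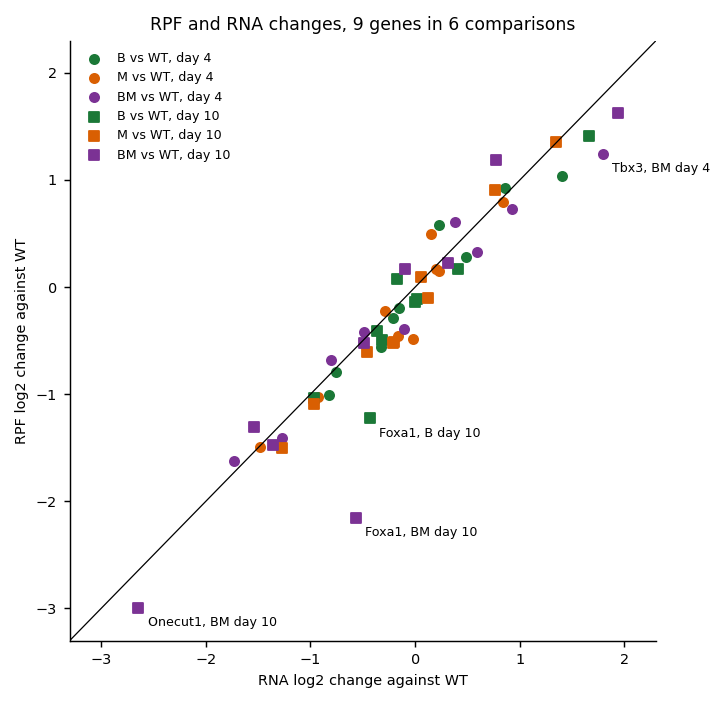
Log2 RPF change (y axis) against log2 RNA change (x axis) of the 9 genes in the 6 comparisons with WT, 54 points in all, with a diagonal at equal change. *Foxa1* in BM at day 10, at −0.56 in RNA and −2.16 in RPFs, lies the farthest below the diagonal.

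No TE change of the 9 genes passed when edgeR tested whether the RPF change differed from the RNA change, in 6 comparisons with WT and 3 differences between days. This fit held no term for the mouse. Of all genes, 0.0488%, 0.971% and 2.23% passed at day 4 for B, M and BM, and 0.0564%, 0% and 0.259% at day 10. For the differences between days it was 0% (B), 0% (M) and 0.31% (BM). At an unadjusted p under 0.05, 1 of the 9 passed in BM at day 4, 1 in B and 1 in BM at day 10, 1 in the B difference, 2 in the BM difference and 0 in the other 4. The share of all genes at that p was not counted. DESeq2 called 1 in BM at day 10 (0.892% of all genes) and 1 in the BM difference (0.683%). *Foxa1* carried these 2. Its log2 ratio of RPF to RNA at day 10 was −0.94, −1.70 and −1.51 in WT and −2.15, −3.55 and −3.45 in BM. The groups do not overlap, and the log2 TE change was −1.61 (SE 0.40, adjusted p = 0.228), or −1.61 with an adjusted p of 0.0447 in DESeq2. With the mouse that gave both libraries as a block, the *Foxa1* TE change was −1.62 (adjusted p = 0.0444) in BM and −0.80 (adjusted p = 0.0261, without the block −0.79 and 0.882) in B at day 10. That of *Tbx3* in BM at day 4 was −0.57 with the block (adjusted p = 0.011, without it −0.56 and 0.31), and that of *Prox1* −0.30 (adjusted p = 0.0791, without it −0.29 and 0.753). With the block, TE of 6.17% of all genes passed in BM at day 4, and 2.6% in B and 5.21% in BM at day 10. The difference of the *Foxa1* TE effect between days in BM was −1.79 (adjusted p = 0.268, with the block 0.076). Without mouse 1 of BM at day 10 the *Foxa1* change was −2.14 (adjusted p = 0.00143) and its difference between days −2.34 (adjusted p = 0.00301), and TE of *Prox1* then rose by 0.59 (adjusted p = 0.0318), with a difference between days of 0.91 (adjusted p = 0.0612). RPF counts of *Foxa1* in BM at day 10 were 94, 36 and 33.

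**Figure D5:**
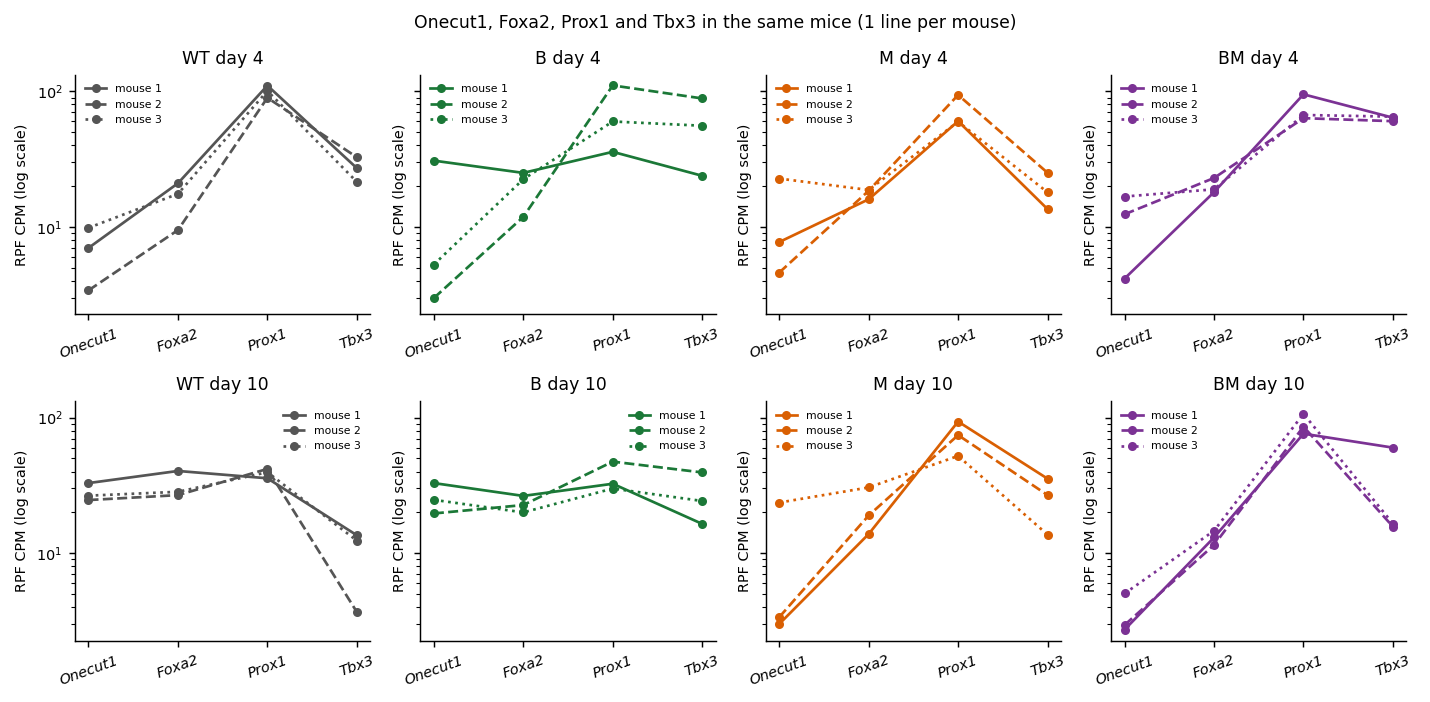
RPF CPM on a log axis (y axis) of *Onecut1*, *Foxa2*, *Prox1* and *Tbx3* (x axis) in each group, with 1 line per mouse. In B at day 4 the mouse with 30.8 CPM of *Onecut1* had 25 of *Foxa2* and 35.8 of *Prox1*, and the mouse with 2.98 had 11.8 and 111.

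*Onecut1* and *Tbx3* varied most of the 9 between mice of a group. The SD within groups of log2 RPF values was 1.02 for *Onecut1*, above 99.7% of 8449 genes, and 0.72 for *Tbx3*, above 99.1%. *Prox1* had 0.40, *Foxa2* 0.385, *Foxa1* 0.375, *Cebpb* 0.28 and *Foxa3* 0.25, and *Hnf4a* at 0.18 and *Cebpa* at 0.16 were under the median of 0.192. The mouse with the most *Onecut1* RPFs was the mouse with the most *Foxa2* in 6 of 8 groups, and the mouse with the least *Onecut1* had the most *Prox1* in 6 groups and the most *Tbx3* in 6. In RNA these counts were 5, 5 and 5. From the other end, the mouse with the most *Onecut1* had the least *Prox1* in 4 of 8 groups and the least *Tbx3* in 4, in RPFs and in RNA, and a group holds only 3 mice. In B at day 4, mouse 1 had 30.8 CPM of *Onecut1*, 25 of *Foxa2*, 35.8 of *Prox1* and 23.8 of *Tbx3*, whereas mouse 2 had 2.98, 11.8, 111 and 88.6. In M at day 10, mouse 3 was at 23.6, 30.5, 52.1 and 13.7, and mouse 1 at 3, 13.8, 93.5 and 35.4. The same mouse was highest in RPFs and RNA in 6 of 8 groups for *Onecut1*, *Foxa2*, *Prox1* and *Tbx3*. The order is a description, since mice of a group share no label that sets them apart.

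Over the 24 mice, genes of mean RPF level of at least 5 CPM were ranked by Pearson correlation of log2 values with each of the 9, as a description over 8449 genes in which points share groups. *Onecut1* was closest to *Foxa2* (r = 0.81) and *Cish*, an inhibitor of cytokine signalling that STAT5 induces (0.80), and *Foxa2* to *Cish* (0.84) and *Rgs3* (0.82). *Cebpa* was closest to *Pygl*, the liver glycogen phosphorylase (0.94), and *Ethe1* (0.93), and mean *Pygl* RPFs at day 10 were 1390 CPM for WT and 1260 for M, and 866 for B and 603 for BM. *Tbx3* was closest to *Rnf43*, a feedback inhibitor of WNT signalling (0.87), and *Plpp3* (0.83). *Foxa1* was closest to *Phldb3* (0.88) and *Bcorl1* (0.88), *Foxa3* to *Litaf* (0.87) and *Rbm42* (0.83), *Cebpb* to *Errfi1* (0.84) and *Pakap* (0.79), *Prox1* to *Zbtb20* (0.83) and *Extl3* (0.77), and *Hnf4a* to *Ciao3* (0.81) and *Nedd4l* (0.79).

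RNA could be divided among transcripts for 4 of the 9 genes. The share of *Cebpa*-201 in *Cebpa* RNA was 52.18% to 61.5% over mice, that of *Foxa2*-201 in *Foxa2* 39.58% to 60.71%, that of *Prox1*-202 in *Prox1* 71.93% to 80.44% and that of *Tbx3*-201 in *Tbx3* 44.29% to 61.25%. For *Hnf4a*, *Foxa1*, *Foxa3*, *Cebpb* and *Onecut1* the tables quantified 1 transcript each, so products of the upstream *Hnf4a* promoter were not counted apart.

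Of 25 other hepatocyte transcription factors, 1 rose and 2 fell in B at day 4 by RPFs, 3 rose and 5 fell in M, and 1 rose and 10 fell in BM. At day 10, 0 rose and 6 fell in B, 0 rose and 2 fell in M, and 5 rose and 7 fell in BM. The numbers that passed, 3, 8 and 11 of 25 at day 4 and 6, 2 and 12 at day 10, stand against 12.5%, 33.3%, 50.9%, 25.2%, 19.4% and 46.8% of all genes, so that each lies near or below the background. Their median log2 changes lay between −0.23 and 0.02. *Nr1i3*, the receptor CAR, rose by 0.60 in B at day 4, and *Atf5* fell by 1.06 in M and 0.99 in BM on that day. *Cebpd*, another C/EBP member, was at −1.44 in BM at day 4 and 2.15 at day 10, and *Klf15* at −0.69 and 1.64. *Mlxipl*, the carbohydrate-responsive ChREBP, fell by 0.80 in B and 1.66 in BM at day 10.

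Genes for hepatocyte products, many of which these factors bind, fell more often than they rose. Of 24 listed, 22 were tested, and at day 4, 2 rose and 7 fell in B, 1 rose and 12 fell in M and 2 rose and 20 fell in BM, with median log2 RPF changes of −0.26, −0.21 and −0.82. At day 10, 3 rose and 15 fell in B, 0 rose and 8 fell in M and 5 rose and 12 fell in BM, with medians of −0.50, −0.37 and −0.65. The numbers that passed, 9, 13 and 22 of 22 at day 4 and 18, 8 and 17 at day 10, stand beside the 12.5%, 33.3%, 50.9%, 25.2%, 19.4% and 46.8% of all genes. *Cyp7a1*, the rate-limiting enzyme of bile acid synthesis, rose in B at day 4 (1.99) and day 10 (1.51) and in BM at day 4 (1.12) and day 10 (1.80), while *Cyp8b1*, the enzyme that directs the pathway to cholic acid, was at −2.42 in BM at day 4 and −3.93 in B at day 10. *Pck1*, which catalyses the first committed step of gluconeogenesis, fell by 4.16 in BM at day 4. *Igfbp1* was at −2.28 in M and 4.93 in BM at day 10, and *Tat* at −2.05 in BM at day 4 and 1.95 at day 10. All values named for these products and for the other transcription factors passed. The counts and medians of these lists were not recomputed with library totals alone.

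Of 16 progenitor and fetal liver genes, 7 to 9 could be tested. *Afp*, the fetal serum protein, rose in all 6 comparisons, with 2.29, 0.98 and 3.42 at day 4 and 3.58, 1.22 and 3.91 at day 10 for B, M and BM. At day 4, 1 gene rose and 1 fell in B, 1 rose and 2 fell in M and 1 rose and 3 fell in BM, with *Spp1* at −0.87, −0.94 and −1.35 and *Sox9* at −0.96 in M and −1.15 in BM. At day 10, 2 rose and 1 fell in B, 2 rose and 0 fell in M and 2 rose and 2 fell in BM, with *Prom1* at 2.63 in B, *Sox9* at 0.86 in M, *Gpc3* at 1.04 and *Krt19* at −1.16 in BM. With so few genes tested, these counts (2 of 7, 3 of 7 and 4 of 7, then 3 of 9, 2 of 8 and 4 of 9) stand beside the same shares of all genes, and nothing particular to the list is read from them.

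Markers of other liver cells were measured beside the 9 genes. Summed RPFs of 9 cholangiocyte markers were 109 to 157 CPM in WT at day 4 and 52.3 to 86.7 in the mutants, and 59.8 to 105 in WT and 48 to 118 in the mutants at day 10. At day 4, 12 Kupffer cell markers summed to 894 to 1020 CPM for WT, 715 to 826 for B, 567 to 1540 for M and 507 to 556 for BM, and at day 10 to 717 to 995 in WT and 1130 to 1250 in BM. The 10 stellate markers summed to 1060 to 1120 CPM for WT and 660 to 812 for BM at day 4, and at day 10 to 1130 to 1320 for WT, 629 to 904 for B, 826 to 916 for M and 851 to 974 for BM. Of the 9 stellate markers tested, 6 fell in BM at day 4, and 6, 4 and 6 fell at day 10 for B, M and BM. Of the 12 Kupffer cell markers, 11 fell in BM at day 4 (median −0.75) and 5 rose in BM at day 10 (median 0.56). The 11 endothelial markers summed to 1170 to 1300 CPM for WT and 930 to 1040 for BM at day 4, where 7 fell, and to 1170 to 1380 for WT and 896 to 972 for M at day 10, where 7 fell. Of all genes, 50.9% passed in BM at day 4, and 25.2%, 19.4% and 46.8% at day 10 for B, M and BM. The 10 blood markers ranged from 228 to 913 CPM, with 1 marker at 0 in B, M and BM at day 4 and in M at day 10. Hepatocyte markers summed to 86000 to 96900 CPM in WT and 40400 to 47300 in BM at day 4, and to 80100 to 100000 in WT and 39300 to 60700 in BM at day 10, whereas the 9 transcription factors summed to 644 to 727 and 464 to 488 CPM at day 4 and 490 to 613 and 478 to 564 at day 10. The part of cell composition in the changes above was not tested.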

How the data were processed

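RPFs and cytoplasmic RNA were sequenced from 24 livers. The authors deposited RPFs as unnormalized counts over each coding sequence. They had trimmed reads (Cutadapt 1.18), aligned them with BBmap to 1 coding transcript per gene, the one with the most RNA, from a filtered GENCODE vM27, removed UMI duplicates and left out the ends of the coding sequence. The deposited RNA values were expected counts and TPM per isoform from Bowtie2 2.3.5.1 and RSEM 1.3.3. Here expected counts were summed per gene and rounded (at least 99.918% of nonzero values were whole). Of 16269 RPF transcripts, 1689 to 3019 had no line in a library and were taken as 0. Counts are deduplicated molecules.

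Groups came from the labels. RPFs, RNA and TE (the interaction of genotype with the kind of library) were tested with edgeR 4.0.16 in R 4.3.3 by the quasi-likelihood F test, with TMM factors and filterByExpr (minimum count 10, minimum total 15), on the mice compared, with Benjamini-Hochberg adjustment over all genes and a threshold of 0.1. SEs were derived from the fitted change and its F value. CPM used TMM-scaled library sizes. Scripts were tested on simulated data. Alternatives were RLE factors, no filter, DESeq2 1.42.0, all 24 mice in one fit, a replicate block, the RPF transcript's RNA alone, leaving out each mouse and, chosen after seeing the data, library totals alone.

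Both libraries of a mouse carry the same number in the labels and deviated together in 24 of 24 mice (r = 0.306 to 0.672), so the mouse pairs RPF with RNA. The main TE test did not use this pairing, which entered only in the fits with the replicate block. The 9 genes, and lists of other hepatocyte factors, hepatocyte products, progenitor genes and cell markers, were chosen with earlier results of these data known. All 9 genes are named in each RPF comparison, and in RNA and TE those whose values are described, along with up to 3 called genes per list with the largest change and, for each of the 9, the 2 genes with the closest pattern. The acute-phase and clock lists were chosen after values were seen.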

Additional observations from a re-analysis of the deposited data

Results flagged for a closer look

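A result is listed here because the change against WT of the same genotype differed between day 4 and day 10 in edgeR's test of that difference over 12 mice (change at day 10 minus change at day 4, log2, Benjamini-Hochberg adjusted p). WT itself differed between the days for several of these genes. No explanation was tested.

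In RPFs of BM, the difference was −3.72 for *Onecut1* (adjusted p = 0.00169), −2.75 for *Foxa1* (0.00105), −1.63 for *Foxa2* (0.00569) and −0.78 for *Cebpa* (0.0162). It was 1.65 for *Cebpb* (0.000692), 1.59 for *Prox1* (0.000748), 1.11 for *Foxa3* (0.00682) and 0.60 for *Hnf4a* (0.0569). In RPFs of B it was −1.81 for *Foxa1* (0.0113), −0.84 for *Cebpa* (0.0107) and 1.18 for *Cebpb* (0.0154), and in RPFs of M it was 1.38 for *Prox1* (0.0618).

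In RNA of BM, the difference was −3.57 for *Onecut1* (0.000435), −2.14 for *Foxa2* (0.000578), −0.94 for *Foxa1* (0.0112), 1.57 for *Cebpb* (0.000338), 1.24 for *Foxa3* (0.00806) and 0.88 for *Prox1* (0.0063). In RNA of B it was −0.81 for *Cebpa* (0.0603) and 1.22 for *Cebpb* (0.0069), and in RNA of M it was 0.92 for *Prox1* (0.0933).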

How the results depend on the processing

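The 9 genes gave 29 calls among 54 RPF values against WT, and leaving out each mouse in turn gave 23 to 33. RPF calls numbered 13 of 36 for BM against B or M (10 to 16), 6 of 9 between WT days (4 to 7) and 12 of 27 for differences between days (10 to 15). In the main fit, the shares of all genes called were 12.5% to 50.9%, 32.7% to 44.7%, 4.44% and 1.18% to 35.7%. RNA calls numbered 25 (23 to 27), 14 (10 to 16), 5 (4 to 6) and 9 (7 to 12). The shares of all genes in RNA were 8.14% to 45.7%, 30.5% to 34.8%, 2.32% and 1.2% to 29.9%. With all 24 mice in one fit the RPF calls against WT were 21, with those in M at day 4 going from 4 to 2, and the calls between WT days were 2 in RPFs and 1 in RNA. In that fit the RPF share of all genes was 4.81% to 60.3% against WT (19.9% for M at day 4). Between WT days it was 1.14% in RPFs and 0.698% in RNA. Without the low-count filter there were 8 between WT days and 15 for differences between days in RNA. Of all genes in RNA, 3.07% were then called between WT days and 2.17% to 18.8% for differences between days. TE calls against WT were 0 of 54, 1 with DESeq2, 1 with all mice in one fit and 0 to 2 without a mouse, and for differences between days 0 of 27, 1, 1 and 0 to 2. Against WT, TE of 0% to 2.23% of all genes was called, 0.0287% to 2.61% with DESeq2 and 0% to 6.99% with all mice. The causes of these shifts were not tested.

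With the replicate block, which for TE is the mouse, TE calls were 4 against WT and 1 for the differences between days, while the share of all genes called was 6.17% for BM at day 4, 2.6% for B and 5.21% for BM at day 10 and 1.87% for the BM difference. The replicate numbers of different groups did not pair mice (correlations of −0.217 to 0.28 in RPFs and −0.234 to 0.267 in RNA, over 0.1 in 16 and 19 of 84 pairs), and the block moved the RPF counts to 33, 13, 6 and 12 and the RNA counts to 30, 16, 5 and 10. Against WT, the block called 11.7% to 50% of all genes in RPFs and 8.41% to 48.3% in RNA.

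Among values called under either scaling, library totals alone turned the direction of *Prox1* in BM at day 4 in RPFs (0.0378) and RNA (0.44). They also turned *Hnf4a* there in RPFs (0.0081) and RNA (0.0659), and in BM against B at day 4 in RPFs (0.18) and RNA (0.0809). Some values called under neither scaling turned too, and the median RPF change of the 9 in B at day 10 went from −0.14 to 0.12. Scaling to library totals alone also moved the median of all genes. Among RNA calls against WT it moved the share that were higher from 50.1% to 56.8% up to 80.7% to 95.1%, and among TE calls of M and BM at day 4 from 91.1% and 76.6% to 51.6% and 54.2%. *Onecut1* in BM against B at day 4 ranged from −0.66 to 1.45 in RPFs when a mouse was left out, the latter without mouse 1 of B. *Tbx3* RNA rested on mouse 1 of BM at day 10, without which it was −0.94 against B (others up to 0.70), −0.63 against M (up to 1.02) and −1.10 for the difference between days (up to 0.55). Over all RPF fits without a mouse, 805 values of the 9 genes stayed on their side of the threshold, 80 lost a call, 32 gained one and 1 turned. *Onecut1* had 28 to 444 RPF counts per mouse.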

Other observations

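Acute-phase genes, a list of 14 written after values had been seen, fell in all 3 genotypes at day 4. *Saa2* RPFs changed by −6.31 in B, −4.79 in M and −6.87 in BM on the log2 scale. All 14 fell in each genotype at day 4, against 12.5%, 33.3% and 50.9% of all genes called. At day 10, 5 rose and 3 fell in B, 2 rose and 5 fell in M and 2 rose and 9 fell in BM, against 25.2%, 19.4% and 46.8% of all genes called. Between WT days, 9 of the 14 were lower at day 10, against 4.44% of all genes called.

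Of 14 clock genes, a list also written after values had been seen, 4 rose and 1 fell in BM at day 10, a share below the 46.8% of all genes that passed there. *Ciart* (5.73) and *Per1* (5.29) rose and *Npas2* (−2.96) fell. The hour at which livers were taken is not given in the sources used here.

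*Cish*, chosen after its values were seen, varied widely between mice of some groups. Its RPFs were 33.4, 0.85 and 27.2 CPM in WT at day 4, 39.5, 1.77 and 19.9 in B at day 4 and 0.805, 3.81 and 32.7 in M at day 10. In each of these groups the mouse with the least *Cish* also had the least *Onecut1*, at 3.4, 2.98 and 3 CPM. The full order of mice was the same for both genes in B at day 4 and M at day 10. In WT at day 4 *Cish* was highest in mouse 1 and *Onecut1*, at 6.99, 3.4 and 9.83 CPM, in mouse 3. In BM at day 4 *Cish* was at 6.36, 18.7 and 8.4 CPM against 4.16, 12.4 and 16.7 of *Onecut1*, so the highest mouse differed there too.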
